A study of Mus musculus with 4 samples.

Results

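The miR-26, miR-29 and miR-30 families were followed in mouse activated T cells carrying a Foxp3 transgene. Members were the probes whose ID, after its prefix, named a miRNA of these families without a star, and they made up 10 of the 171 miRNA probes and of the 178 probes in all. There were 2 probes for miR-26, 3 for miR-29 and 5 for miR-30. The platform annotation listed 3 of the 10, 1org-26b, 1org-30e and 1org-29a, the last under the human gene symbol, so probe IDs are used throughout.

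MicroRNAs are short RNAs that guide Argonaute proteins to complementary sites in messenger RNAs, mostly through the seed near their 5′ end, and so lower the output of those messages. Members of a family share the seed and are expected to recognise largely the same sites. All 3 families are abundant in resting lymphocytes and fall when T cells are activated. miR-29 is known to restrain T-bet, Eomes and interferon gamma, miR-26 is known to restrain Ezh2, and miR-30 is known as a regulator of the transcription factor Blimp-1.

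RNA of Foxp3-transduced activated T cells, labelled with one dye, was hybridised against RNA of activated T cells transduced with the control vector, labelled with the other. Foxp3 is the lineage factor of regulatory T cells. Cells were taken at 72 h or 96 h, each time giving a pair of arrays with exchanged dyes, and both groups were activated and both were transduced. Strain, age, vector and any sorting of transduced cells were not given in the labels. Arrays are named here by time and by the dye of the Foxp3 RNA. The labels give both arrays of a pair the same RNA sources with the dyes exchanged, so each pair was taken as a dye swap and as 1 replicate (n = 2), and no label said whether the pairs came from separate cultures. P-values over both time points therefore measured only the spread between the 72 h pair and the 96 h pair, pooled over all miRNA probes. That spread may be technical and also holds any change with time. The p-values of the time term measured only the spread between the arrays of a pair, with no replicate of a time point. Ratios hold no level, so the labelled cell type could not be checked against its markers, and fewer cells of a type cannot be told apart from less RNA per cell.

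The mature sequences show how close the miRNAs named by the probe IDs are. The probes' own sequences are not in the sources used here, so members were matched by name. The arm was chosen here, 5p for the miR-26 and miR-30 members and 3p for the miR-29 members. The RefSeq table used here held 8 of the 10 under these names. miR-30b and miR-30d are named only. The seed, bases 2 to 8, is in capitals.
miR-26a-5p: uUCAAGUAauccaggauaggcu
miR-26b-5p: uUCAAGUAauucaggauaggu
miR-29a-3p: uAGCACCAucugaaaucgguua
miR-29b-3p: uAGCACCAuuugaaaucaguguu
miR-29c-3p: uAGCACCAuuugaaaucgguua
miR-30a-5p: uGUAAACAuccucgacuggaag
miR-30c-5p: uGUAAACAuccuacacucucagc
miR-30e-5p: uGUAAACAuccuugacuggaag
The seed was identical within each family, and every difference lay downstream of it. Positions are counted from 1 at the 5′ end, with the base of the first-named miRNA first. miR-30a and miR-30e differed by C13U alone, and miR-29a and miR-29c by C10U alone. miR-26a and miR-26b differed by C11U and C21U, besides 1 base of length. miR-30a and miR-30c differed at 5 of the 22 positions they share, starting with C13A. The GC content ran from 33.3% in miR-26b to 45.5% in miR-30a. A probe for one of such near-identical RNAs may also bind its relatives, and the extent of this on these arrays was not tested.

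In the mouse genome (GRCm38.p6) the miR-26 hairpins lie within the spans of 3 related phosphatase genes. Mature miR-26a is at chr9:119031811-119031832 within Ctdspl and at chr10:126995543-126995564 within Ctdsp2, and miR-26b is at chr1:74394324-74394344 within Ctdsp1, all on the plus strand. miR-29a, at chr6:31062673-31062694 on the minus strand, has a miR-29b hairpin 275 bases away. The other miR-29b hairpin lies 426 bases from that of miR-29c, whose mature sequence is at chr1:195037600-195037621 on the plus strand. No protein-coding gene spans these miR-29 hairpins in the table used. miR-30e, at chr4:120772660-120772681 on the minus strand, and a miR-30c hairpin 2983 bases away both lie within the span of Nfyc. miR-30a, at chr1:23272274-23272295 on the plus strand, lies 19361 bases from the other miR-30c hairpin. The mature miR-26a, miR-29b and miR-30c sequences each come from 2 loci, which a probe for the mature RNA cannot tell apart. Exons and introns were not used here.

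The arrays differed in ways that bear on every value below. Deposited medians over the miRNA probes were -0.59 on the 72 h Cy5 array, -0.83 on the 72 h Cy3 array, 1.27 on the 96 h Cy5 array and 0.02 on the 96 h Cy3 array. Across the 171 probes, the 96 h Cy5 array correlated with the other arrays at r between -0.20 and 0.07, and those 3 correlated with each other at 0.66 to 0.80. The direction of the ratios is not stated in the sources used here. Deposited values are therefore described first, and then both readings. In the likely reading the ratio is Cy5 over Cy3, as the labels put Cy5 in channel 2 throughout, and the sign is turned where Foxp3 was in Cy3. In the other reading the values already stand for Foxp3 over control. Were the ratio Cy3 over Cy5, every sign of the likely reading would be the opposite. If the first reading holds, the mean in the second is the part of the signal that follows the dye, and the reverse. Differences that follow Foxp3 then have opposite deposited signs on the 2 arrays of a pair. The deposited values of the 72 h pair rose and fell together instead, at r = 0.66, and those of the 96 h pair correlated at -0.12. The reading called likely thus rests on the labels alone, and which reading holds was not tested.

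The deposited values of the miR-30 family fell into different patterns. Probe 1org-30a was at -0.83 and -1.53 on the 72 h arrays (Cy5, then Cy3) and at 1.60 and -0.0040 on those of 96 h. Probe 1org-30e was at -1.14 and -1.37, and then at 1.53 and 0.24. These near-identical miRNAs thus lay below 0 on both 72 h arrays and above 0 on the 96 h Cy5 array, where the median of all miRNA probes was 1.27. On that array 63.7% of miRNA probes lay at or below 1org-30a and 61.7% at or below 1org-30e. Probe 1org-30c was at -0.34 and 0.30, and then at 0.33 and 1.11. Probe 1org-30d was at -0.033 and -0.19, and then at 0.72 and 0.63. Both were higher than 1org-30a on the 72 h arrays and the 96 h Cy3 array and lower on the 96 h Cy5 array. Probe 1org-30b, at -0.31 and -0.74 and then at 0.92 and -0.32, lay within the range of the other 4 probes on 3 arrays and was the lowest of the family on the 96 h Cy3 array.

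Within the miR-29 family, 1org-29a and 1org-29b went together and 1org-29c did not. Probe 1org-29a was at 0.29 and -0.033 at 72 h and at 0.14 and 0.68 at 96 h. Probe 1org-29b was at 0.038 and -0.030, and then at 0.089 and 1.13. Probe 1org-29c was at -0.59 and -0.73, and then at 1.15 and 0.39, so it was the lowest of the 3 on every array except the 96 h Cy5 array, where it was the highest. On each array its value was within 0.40 of the median of all miRNA probes. The miR-26 probes parted most on 1 array. Probe 1org-26a was at -0.84 and 0.44, and then at 0.65 and 0.50, while 1org-26b was at -0.95 and 0.14, and then at 1.16 and -0.95. On the 96 h Cy3 array 1org-26b was thus the lowest member, and only 9.4% of miRNA probes lay at or below it, against 64.3% for 1org-26a.

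**Figure D1:**
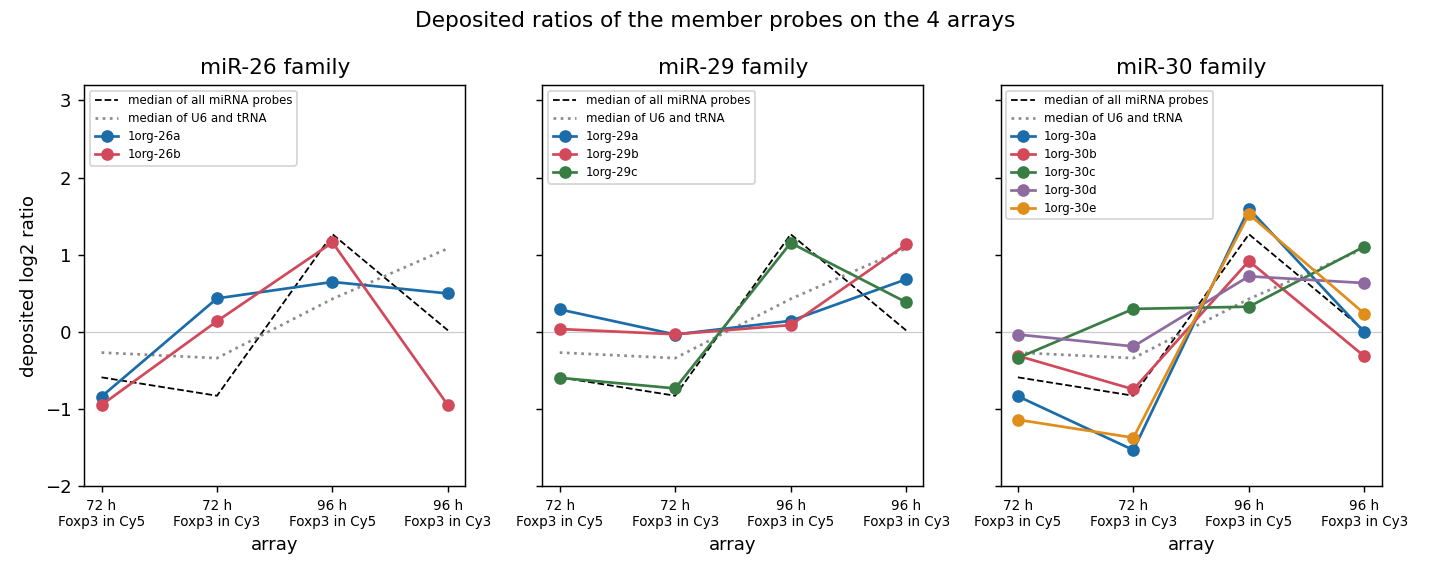
Deposited log2 ratio (y axis) of each member probe on the 4 arrays (x axis, named by time and the dye of the Foxp3 RNA), 1 panel per family; lines only join the points of 1 probe, the dashed line is the median of the 171 miRNA probes and the dotted line that of the U6 and tRNA probes. 1org-30a and 1org-30e run together, as do 1org-29a and 1org-29b, while 1org-29c follows the dashed line.

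How alike 2 probes were can be given by the root mean square (RMS) of their differences over the 4 arrays, a distance that neither the centring of an array nor the direction of its ratio can change. Lower values mean more alike profiles. The closest of all member pairs (14 within a family and 31 between families) was 1org-30a and 1org-30e at 0.21 log2 units. Of the 14535 pairs of miRNA probes, 0.8% were closer. Next came 1org-29a and 1org-29b at 0.26, where 1.6% were closer. With any single array left out, the first distance ran from 0.17 to 0.24 and the second from 0.15 to 0.30.

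Among the members, pairs that share a seed were at the median no closer than pairs of different families. The 14 pairs within a family had a median distance of 0.78 and the 31 pairs between families one of 0.78 as well, against 1.07 over all pairs of miRNA probes. These pairs share probes and arrays, so this is a description with no test. The largest distance within a family was 1.27, between 1org-30a and 1org-30c. Probe 1org-29b was at 0.28 from 1org-30c of another family, closer than it was to 1org-29c at 0.80. Pairs 1 substitution apart differed in their distance too. A single substitution separates both miR-30a from miR-30e and miR-29a from miR-29c, yet 1org-29a and 1org-29c lay at 0.77, with differences of 0.89, 0.70, -1.01 and 0.30 on the 4 arrays. miR-29a and miR-29b differ at 4 of 22 shared positions and were the closer pair.

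Among the members with a position here, neighbouring hairpins gave no single pattern. The hairpins of miR-30b and miR-30d were not placed. The probes 1org-29a and 1org-29b, with hairpins 275 bases apart on chromosome 6, were at 0.26, whereas 1org-29b and 1org-29c, 426 bases apart on chromosome 1, were at 0.80. 1org-30c was at 1.18 from 1org-30e and at 1.27 from 1org-30a, its neighbours on chromosomes 4 and 1. The miR-26a and miR-26b probes were at 0.78, a distance that fell to 0.35 without the 96 h Cy3 array.

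**Figure D2:**
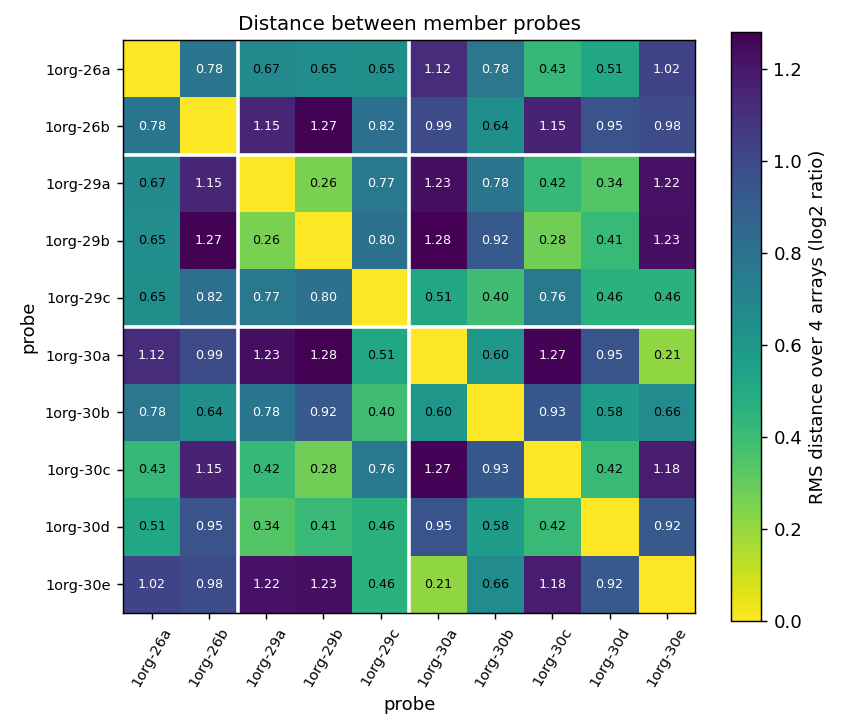
Root mean square distance between the deposited log2 ratios of each pair of member probes over the 4 arrays (both axes are probes, colour and printed numbers are distances in log2 units, white lines part the families). The smallest distance, 0.21, is between 1org-30a and 1org-30e, and 1org-29b is nearer to 1org-30c (0.28) than to 1org-29c (0.80).

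The members also divided by which reference profile they resembled, a comparison made after the values had been seen and given with no test. The references were the median of the U6 and tRNA probes, which is -0.27, -0.34, 0.43 and 1.08 on the 4 arrays, and the median of all miRNA probes. The other small nuclear RNA control probes were left out. They were at -1.73, -1.02, 2.04 and -0.14, and at -0.90, -1.49, 2.02 and -1.38. Like the miRNA medians, both lay above the U6 and tRNA median on the 96 h Cy5 array and below it elsewhere. The U6 probe itself was at -0.16 on the 96 h Cy3 array. How the members divide with other controls as reference was not tested. Of the 10 members, 5 were nearer to U6 and tRNA, namely 1org-26a, 1org-29a, 1org-29b, 1org-30c and 1org-30d. Probe 1org-29b was at 0.28 from U6 and tRNA and at 0.96 from the miRNA medians. The other 5 were nearer to the miRNA medians, closest of them 1org-29c at 0.20, which was at 0.56 from U6 and tRNA. The same 5 members were nearer to U6 and tRNA without the 96 h Cy5 array.

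Over all miRNA probes, 32.7% (56 of 171) were nearer to U6 and tRNA. Among other miRNAs that T cell activation reduces it was 12 of 14, among miRNAs that it induces 9 of 15, and among miRNAs typical of other cell types 3 of 15. Signal strength was not used here, and its part in this division was not tested.

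**Figure D3:**
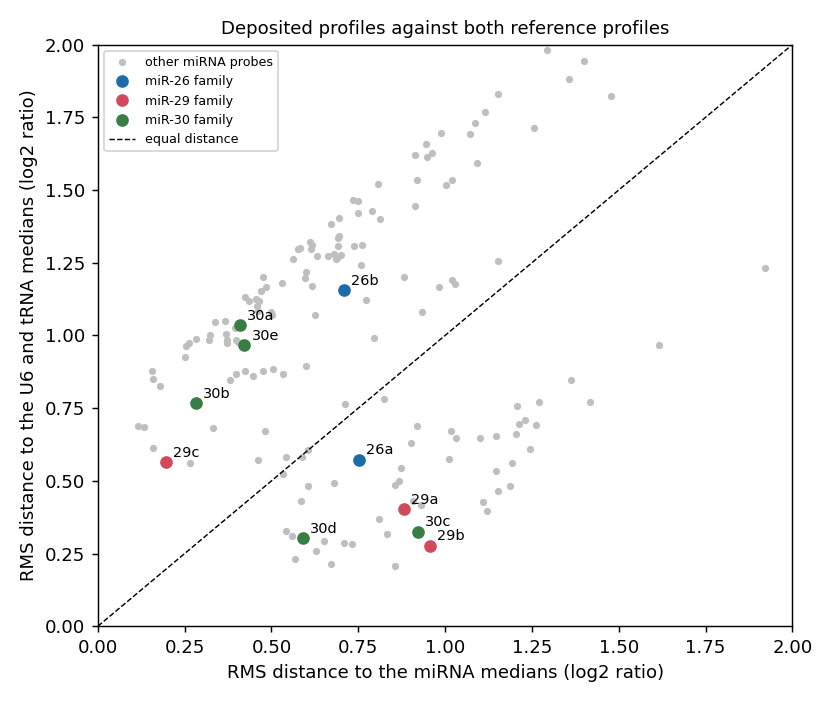
Distance of each miRNA probe from the median profile of all miRNA probes (x axis) and from that of the U6 and tRNA probes (y axis), both as root mean square over the 4 arrays in log2 units, with members labelled by number and 11 probes beyond the axes. Points under the dashed line of equal distance are nearer to U6 and tRNA; 5 of the 10 members lie there.

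For each family, the 3 other miRNA probes nearest to its median profile were found by Euclidean distance over the 4 arrays. For miR-29 these were 2org-107 at 0.39, 1org-21 at 0.47 and 1org-103 at 0.48. For miR-30 they were 1org-7e at 0.39, 1org-296 at 0.40 and 2org-212 at 0.41. The miR-26 median had no probe so near, with 1org-296 at 0.89, 1org-298 at 1.04 and 1org-7d* at 1.06.

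With the likely reading, the question was whether Foxp3 went with a different level of these miRNAs over both time points. No member passed the test. The largest means were those of 1org-30a at 0.57 ± 0.32, 1org-30b at 0.42 ± 0.28 and 1org-30e at 0.38 ± 0.37 (SD, n = 2). On the other side stood 1org-30c at -0.35 ± 0.05, 1org-26a at -0.28 ± 0.50 and 1org-29b at -0.24 ± 0.39 (SD, n = 2). The miR-30 family thus held both the highest and the lowest mean of the 10 members, and the remaining 4 lay between -0.053 (1org-29a) and 0.26 (1org-26b, ± 1.13).

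limma called 0 of the 10 members, with adjusted p from 0.578 to 0.945 and no member at an unadjusted p under 0.05 (lowest 0.232, 1org-30a). Over all 171 probes it called 0 (0%), with 16 at an unadjusted p under 0.05. The fit over the 4 single arrays with a dye term and that with robust variance called 0 members as well. The pooled standard error of 0.48 is as large as most of these means, so changes of this size were not detectable with these arrays. Without the 72 h Cy5 array limma called 1org-30a at 1.17 (adjusted p = 0.0295) and 1org-30e at 1.01 (adjusted p = 0.0375) among 94 of 171 probes, when the 72 h value rested on 1 array. After centring on the miRNA medians it called 0 members and 1.17% of all probes, and in the other reading 0 members and 1.75%.

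At 72 h, 1org-26a was the 1 member past 1.5-fold with the same sign on both arrays in the likely reading. Its turned values were -0.84 and -0.44, with a mean of -0.64, or 1.55-fold lower with Foxp3. Probe 1org-26b lay on the same side on both arrays, at -0.95 and -0.14, and its mean of -0.54 was just short of the threshold of 0.58. Within 1 time point no test is possible. In all miRNA probes 5.26% passed on the lower side and 2.34% on the higher side, where no member stood.

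Both miR-26 probes stood lower after centring on the miRNA medians, at -0.76 for 1org-26a and -0.66 for 1org-26b, and then passed, as did 3.51% of all probes; no member and 1.17% of all probes passed on the higher side. Centred on U6 and tRNA, 1org-26a was at -0.67 and 1org-26b at -0.58. The miR-29 and miR-30 members had means between -0.32 (1org-30c) and 0.35 (1org-30a). For 1org-30a and 1org-30e these means joined values of opposite sign, -0.83 and 1.53 for the first and -1.14 and 1.37 for the second. Read from 1 array, 4 members passed without the 72 h Cy5 array, all higher, beside 72.5% of all probes in either direction, and 5 without the 72 h Cy3 array, all lower, beside 94 of 171 probes. Neither share of the members was above that of all probes.

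At 96 h, 3 members were past 1.5-fold in the likely reading, all on the higher side, where 46.2% of all miRNA probes stood as well. Probe 1org-26b had turned values of 1.16 and 0.95 and a mean of 1.05, or 2.08-fold. Probe 1org-30a had 1.60 and 0.0040, with a mean of 0.80, and 1org-30b had 0.92 and 0.32, with a mean of 0.62. The 1org-30a mean thus came from 1 array, while both arrays of 1org-26b gave values near its mean. On the Cy5 array, though, the 1.16 of 1org-26b was below the median of all miRNA probes, 1.27. No member passed on the lower side, as against 5.26% of all probes, and the lowest was 1org-29b at -0.52, from 0.089 and -1.13.

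The split at 96 h changed with the scaling. The passing members after centring on the miRNA medians were 1org-29a at -0.89, 1org-29b at -1.15 and 1org-30c at -1.01, all lower, as were 25.1% of all probes, and none was higher, where 17.5% of all probes stood. Probe 1org-26b was then at 0.43, with -0.11 and 0.97 on the single arrays. Centred on U6 and tRNA, 5 members passed, all higher, and 65.5% of all probes passed in either direction. Without the 96 h Cy5 array 5 members passed, 1 higher and 4 lower, beside 56.7% of all probes, and without the 96 h Cy3 array 7, all higher, beside 77.8%. Counted in either direction, each of these shares of the members was below that of all probes, which was 42.7% after centring on the miRNA medians. On the lower side alone, the 3 of 10 members after that centring were above the 25.1% of all probes. Probes of miRNAs typical of other cell types stood on the higher side too, with 15 of 15 above 0 at 96 h (0.56 to 1.93) and 9 of 15 above 0 at 72 h (-0.35 to 0.55). Over all probes, 127 and 102 of 171 were above 0 at these times. Their part in the members' values was not tested.

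Between the time points, 1org-26b was the 1 member whose arrays of the 2 times did not overlap and lay at least 1.5-fold apart on average. It went from -0.95 and -0.14 at 72 h to 1.16 and 0.95 at 96 h in the likely reading, a difference of 1.60, or 3.03-fold. The difference was 1.09 centred on the miRNA medians and 1.96 centred on U6 and tRNA, and it lay between 1.19 and 2.00 with any single array left out. Over all probes, 4.68% were higher at 96 h by this rule and 2.34% lower. The limma time term over the 4 arrays did not call it (adjusted p = 0.99) and called 0 of 171 probes, none at an unadjusted p under 0.05. This fit counts the 4 arrays singly and has no replicate of either time point, so its p describes only the spread between dye-swapped arrays. Its standard error of 1.42 was near the size of the difference.

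Its relative 1org-26a, at -0.64 and 0.0745, differed by 0.71 between the time points, and its 96 h arrays, at 0.65 and -0.50, overlapped those of 72 h. Centred on the miRNA medians, 1org-26b was still higher at 96 h, where 13.5% of all probes were, and 1org-29b was lower by 1.06, where 10.5% were. The count of differing members rested on single arrays. It was 6 without the 72 h Cy3 array (60.8% of all probes), 5 without the 96 h Cy5 array (32.7%), 8 without the 96 h Cy3 array (70.2%) and 1 without the 72 h Cy5 array (12.9%). Probe 1org-26b was among them each time.

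The other reading gave a different set of members. With no sign turned, 1org-30e at -1.25, 1org-30a at -1.18 and 1org-29c at -0.66 passed on the lower side at 72 h, where 53.2% of all probes did, and none on the higher side (2.92% of all probes). At 96 h, 5 members passed on the higher side, 1org-30e at 0.88, 1org-29c at 0.77, 1org-30c at 0.72, 1org-30d at 0.68 and 1org-29b at 0.61, with 33.9% of all probes; no member and 0% of all probes passed on the lower side.

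Between the time points, 7 of the 10 members were higher at 96 h without overlap in that reading, as were 67.8% of all probes, with 0% lower. The largest differences were 2.14 for 1org-30e, 1.98 for 1org-30a and 1.43 for 1org-29c. Probe 1org-26b was then at -0.40 and 0.11, a difference of 0.51, and 1org-26a was at -0.20 and 0.57. Of the 15 miRNAs typical of other cell types, 11 passed on the lower side and 4 on the higher side at 72 h, and 5 on the higher side at 96 h, and their part in the members' values was not tested. The members' share of differences between the time points was near that of all probes.

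**Figure D4:**
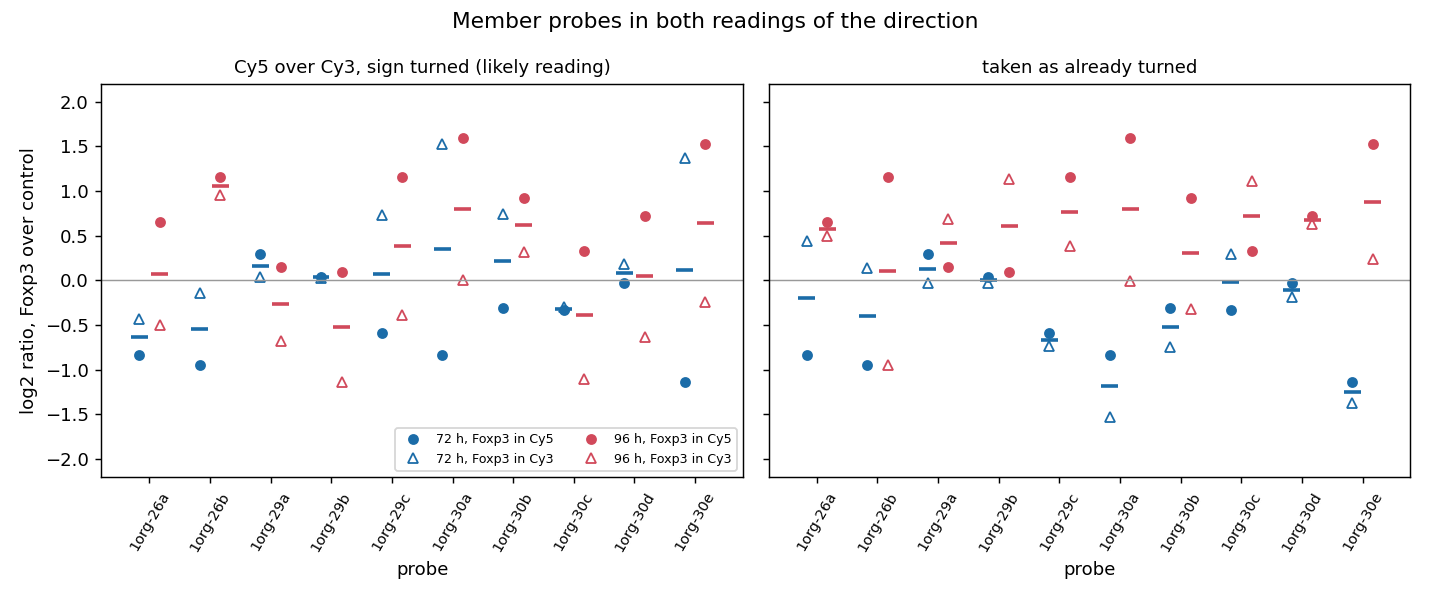
Log2 ratio of Foxp3 over control (y axis) for the 10 member probes (x axis) in the likely reading (left) and with no sign turned (right); filled circles are arrays with Foxp3 in Cy5, open triangles those with Foxp3 in Cy3, and bars are means of the 2 arrays of a time point. On the left both 72 h points of 1org-26b lie below 0 and both 96 h points above; on the right 1org-30a and 1org-30e have both 72 h points below -0.8.

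The families were set beside other miRNAs of T cell activation, with counts and medians only. Of 14 other miRNAs that activation reduces, 4 were past 1.5-fold lower at 72 h in the likely reading, 1org-150 at -0.83, 1org-7g of the let-7 family at -0.77, 1org-7i at -0.63 and 1org-15b at -0.60. At 96 h 1org-15a was lower at -0.85 and 2org-181c higher at 0.62. Among all miRNA probes 5.26% passed lower at 72 h, and 5.26% lower and 46.2% higher at 96 h. The median of these 14 was -0.45 at 72 h and -0.28 at 96 h, against 0.0728 and 0.23 for the miR-26, miR-29 and miR-30 members and 0.0745 and 0.81 for all miRNA probes. At 72 h 1org-26a and 1org-26b lay below the median of the 14, while the other 8 members lay above it. In the other reading the medians of the 14 were 0.13 and 0.57. They were -0.30 and 0.64 for the members and -0.67 and 0.65 for all miRNA probes. At 72 h the 14 thus stood above both. In that reading 2 of the 14 passed lower at 72 h and 5 higher at 96 h, against 3 and 5 members. Centring on the miRNA medians changed the counts of the likely reading. Then 2 of the 14 passed lower at 72 h and 11 at 96 h, and 0 higher. Of the members 2 and 3 passed lower, and of all miRNA probes 3.51% and 25.1%. Centred on U6 and tRNA instead, 5 of the 14 passed lower at 72 h and 3 higher at 96 h. Of the members 1 and 5 did so.

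Of 15 miRNAs that activation induces, 2 were higher at 72 h, 1org-31 at 1.25 and 1org-155 at 0.96, and 2 lower, 2org-210 at -0.69 and 1org-20 at -0.64. At 96 h 4 were higher, 1org-182 at 0.90, 2org-214 at 0.83, 1org-31 at 0.81 and 1org-183 at 0.805. The 3 lower were 1org-20 at -1.09, 1org-155 at -0.82 and 2org-19a at -0.695. Probe 1org-155 thus passed on opposite sides at the 2 times. Among all miRNA probes 2.34% passed higher and 5.26% lower at 72 h, and 46.2% higher and 5.26% lower at 96 h. The medians of the 15 were 0.092 and -0.36. In the other reading these were 0.0070 and 0.63, and 2 of the 15 passed lower at 72 h and 5 higher at 96 h. The counts of the likely reading changed here too with centring on the miRNA medians. At 72 h 1 of the 15 then passed higher and 1 lower. At 96 h 9 passed lower and 0 higher, beside 25.1% and 17.5% of all miRNA probes. Centred on U6 and tRNA, 2 passed higher and 1 lower at 72 h, and 6 higher and 2 lower at 96 h.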

How the data were processed

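The authors deposited 1 log ratio per probe and array, taken here as log2 of the channels' ratio, for 4 two-channel arrays. Scanner, background correction, normalization, log base and direction are not given in the sources used here. Natural logs would make each fold larger. The 7 control RNA probes were left out of the tests, and array values were averaged per time point. An intercept-only limma fit (limma 3.58.1, R 4.3.3) covered 171 miRNA probes. A Benjamini-Hochberg adjusted p under 0.05 made a call. Simulated data held 20 changed probes and independent normal noise of 1 pooled SD, with no shift shared by the probes of a time point. On these the fit recovered 5.2% of changes of log2 1, 68.1% of log2 2 and 98.1% of log2 4. Recovery with array-wide shifts such as those of the real arrays was not tested. Members were matched to probes by ID, and mature sequences and positions came from RefSeq (GRCm38.p6). The members and the comparison lists were chosen with earlier results of these data known. Named besides the members were the 3 probes nearest to each family's median profile, and list probes past 1.5-fold, up to 4 per list and direction. Alternatives were 2 centrings, the other reading of the direction, a 2-fold threshold, natural logs, single arrays left out, a dye term and robust variance.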

Additional observations from a re-analysis of the deposited data

Results flagged for a closer look

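Probe 1org-26b had both 72 h arrays below 0 and both 96 h arrays above 0 in the likely reading, a difference of 1.60. The limma time term did not call it (adjusted p = 0.99 without centring, 0.989 centred on the miRNA medians and 0.498 centred on U6 and tRNA). In the other reading, with no sign turned, the same opposition of the time points was seen for 1org-30e at 2.14 (adjusted p = 0.353, unadjusted p = 0.0408, the lowest of the members in that reading), for 1org-29c at 1.43 (adjusted p = 0.353) and for 1org-30d at 0.79 (adjusted p = 0.477). In that reading 67.8% of all miRNA probes were higher at 96 h without overlap. Centred on the miRNA medians as well, the differences were 0.79 for 1org-30e, 0.0815 for 1org-29c and -0.56 for 1org-30d. All these p-values come from a fit that counts the dye-swapped arrays singly and has no replicate of a time point.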

How the results depend on the processing

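The depth of the signal over background was not used here, and the number of arrays limits every value. The count of members called by limma over both time points was 0 under the 6 alternatives that kept all arrays and 0 to 2 with single arrays left out. For the counts that follow, the share of all probes is in brackets where all arrays were kept. In the likely reading without centring, 1 member was past 1.5-fold at 72 h (7.6%). The count was 2 centred on the miRNA medians (4.68%), 3 taken as already turned (56.1%) and 4 with both (44.4%). It was 0 at 2-fold (0.585%), 2 as natural logs (14.6%) and 4 to 5 with single arrays left out. At 96 h, 3 members were past 1.5-fold in the likely reading without centring (51.5%). The count was 5 centred on U6 and tRNA (65.5%) and 5 taken as already turned (33.9%). It was 0 with the already turned reading centred on the miRNA medians (17%), 1 at 2-fold (28.7%) and 5 to 7 with single arrays left out. Between the time points, 1 member differed in the likely reading without centring (7.02%). The count was 2 centred on the miRNA medians (24%), 4 centred on U6 and tRNA (47.4%) and 7 taken as already turned (67.8%). It was 3 with the already turned reading centred on the miRNA medians (20.5%), 0 by the limma time term (0%) and 1 to 8 with single arrays left out.

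Signs of the means over both time points turned as follows, all of them uncalled. Centred on the miRNA medians, 1org-26b went to -0.12, 1org-29c to -0.14 and 1org-30d to -0.31, and centred on U6 and tRNA 1org-29a went to 0.092. Taken as already turned, 8 turned, 1org-26a to 0.19, 1org-26b to -0.15, 1org-29a to 0.27, 1org-29b to 0.31, 1org-30a to -0.19, 1org-30b to -0.11, 1org-30c to 0.35 and 1org-30e to -0.19. Centred as well, the same 8 were at 0.22, -0.12, 0.30, 0.34, -0.16, -0.080, 0.38 and -0.15. With single arrays left out, means ran from -0.57 to 0.0060 for 1org-26a, -0.26 to 0.15 for 1org-29a, -0.55 to 0.0615 for 1org-29b, -0.16 to 0.61 for 1org-29c, -0.016 to 1.17 for 1org-30a, -0.71 to 0.0045 for 1org-30c, -0.28 to 0.40 for 1org-30d and -0.25 to 1.01 for 1org-30e. With the already turned reading centred on the miRNA medians, the 72 h mean of 1org-26a was 0.51, the 96 h means of 1org-26b and 1org-30b were -0.54 and -0.34, and the 1org-26b difference was -0.84. The 96 h mean of 1org-30b was -0.0060 with the likely reading so centred. The cause of these changes was not tested.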

Other observations

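The table also held 1org-30a*, a probe whose star marks the other strand of the miR-30a hairpin. It was at 0.28 and 0.052 on the 72 h arrays (Cy5, then Cy3) and at 2.85 and 1.17 on those of 96 h, above 1org-30a on all 4 arrays. In the likely reading its means were 0.11 at 72 h and 0.84 at 96 h, the latter from 2.85 and -1.17, against 0.35 and 0.80 for 1org-30a. Taken as already turned, they were 0.16 and 2.01, against -1.18 and 0.80.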
